A study of Mus musculus with 30 samples.

Results

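The 10 genes described here are the NF-kappaB subunits and co-regulators Nfkb1, Nfkb2, Rel, Relb, Bcl3 and Nfkbiz, the feedback genes Nfkbia, Tnfaip3 and Birc3, and the kinase gene Map3k8. They were taken by gene name, 10 of 42283 gene names in the count tables, and the expected counts of all transcripts under a name were summed. All 10 passed the filter on low counts in both experiments of the study.

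The study sequenced poly(A) RNA from neural retina of Abca4-/-Rdh8-/- mice with strand information, in 30 libraries. Every group, the controls included, carried both knockouts on the C57BL/6J background, and male and female mice of 4 to 6 weeks were used. These mice clear all-trans-retinal slowly from their photoreceptors, which makes the retina sensitive to bright light. The mixture experiment had 4 groups of 3 libraries. BMT was bromocriptine (BRM), metoprolol (MTP) and tamsulosin (TAM) before light, MDB was metoprolol, doxazosin (DOX) and bromocriptine before light, light was DMSO before light, and no light was DMSO without the bright exposure. The single-drug experiment had 6 groups of 3 libraries, BRM, MTP, TAM or DOX alone before light, light with DMSO, and no light with DMSO. Light was 10000 lux for 30 min, injections were given 30 min before it, and retinas were collected 24 h after it. Drug doses were not found in the labels, and no group received drug without light. Tamsulosin and doxazosin are alpha-1 blockers, metoprolol is a beta-1 blocker and bromocriptine is a dopamine agonist of the D2 type.

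NF-kappaB is a family of dimeric transcription factors that drives inflammatory, stress and survival genes. In the canonical branch, kinases mark the inhibitor IkappaB-alpha, the product of Nfkbia, for destruction, and dimers such as p50 with RelA enter the nucleus. In the non-canonical branch the p100 precursor made from Nfkb2 is processed to p52, which pairs with RelB. Several genes of the family are themselves transcribed by NF-kappaB in other mouse tissues, so that their own RNA is a common readout of the pathway and of its feedback. Map3k8 encodes TPL2, a kinase that p105, the precursor made from Nfkb1, holds inactive until the canonical branch is engaged, and that then feeds the MEK and ERK kinases.

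Promoter sequence is shown for the members in which letters matching the kappaB consensus were found. These were Bcl3, Nfkb2 and Nfkbia, which were higher with light, Tnfaip3, which was lower, and Rel, which was not called. RefSeq (GRCm38.p6) gave windows of 250 bases before to 50 after an annotated start for 6 of the 10 genes, Bcl3, Nfkb2, Rel, Nfkbia, Tnfaip3 and Birc3. The 10-letter kappaB consensus was searched on both strands, overlapping matches included. At least 1 match was found for 5 of these 6 genes and none for Birc3, against 4.51% of the 32851 promoter windows in the table, and 0.554% held matches at 2 or more positions. A match is a description of letters and not a bound site. Capitals mark the matches on either strand, each sequence runs 5′ to 3′ on the gene's strand, and the parts shown are stretches of the windows around the matches.
Nfkb2, chr19:46304677-46304736, plus strand: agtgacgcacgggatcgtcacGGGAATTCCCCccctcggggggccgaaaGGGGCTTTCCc
Nfkbia, chr12:55492648-55492707, minus strand: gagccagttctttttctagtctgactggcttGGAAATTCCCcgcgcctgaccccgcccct
Rel, chr11:23771030-23771089, minus strand: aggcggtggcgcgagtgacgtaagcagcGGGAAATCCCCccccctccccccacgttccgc
Tnfaip3, chr10:19015516-19015545, minus strand: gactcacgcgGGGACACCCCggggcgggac
Tnfaip3, chr10:19015411-19015440, minus strand: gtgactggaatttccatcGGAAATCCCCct
Bcl3, chr7:19822734-19822763, minus strand: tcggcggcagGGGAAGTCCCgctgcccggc

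Libraries of the mixture experiment held 18.5 to 25.8 M gene counts and those of the single-drug experiment 12 to 22.2 M. Values below are CPM, counts scaled to library size with TMM factors within an experiment, so levels are ordered only within an experiment. The labels do not say whether the 3 libraries of a group came from different mice, so that p-values measure the spread between these libraries, which may be technical. The 7 rod markers fit the label of neural retina with summed levels of 11680 to 38400 CPM, and lens-fibre transcripts, which a clean neural retina lacks, ran from 87.8 to 34380 CPM. In MDB libraries the latter were at 17470 to 26040 CPM, against 394 to 8021 CPM with light. With BRM they were at 13730 to 34380 CPM, against 8426 to 9504 CPM with light. Other groups ranged widely, such as 717 to 30760 CPM without light in the mixture experiment. TAM replicate 2 stood apart from the other TAM libraries in most of the members described here, and several member results that rest on it are given with and without it. The list counts, list medians and rod ratios with TAM include it throughout. In bulk RNA, fewer cells of a type and less RNA per cell cannot be told apart.

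At 24 h after bright light, 6 of the 10 members were higher and 1 was lower in the mixture experiment, and 5 were higher and 1 lower in the single-drug experiment. The risers in both were Bcl3, Map3k8, Nfkb2, Relb and Nfkbia, with Nfkbiz called in the mixture experiment, and Tnfaip3 fell in both. Among all genes tested, 13.3% were called in the mixture experiment (7.77% higher and 5.48% lower) and 24% in the single-drug experiment (11.3% higher and 12.6% lower). The members' median log2 fold change was 0.75 in the mixture experiment and 0.46 in the single-drug experiment, beside 0.01 and 0.02 over all genes tested in the same order. Libraries of the light and no light groups did not overlap for 8 members in the mixture experiment, where 30.3% of all genes had this pattern, and for 7 members in the single-drug experiment, where 40.4% did. The members were chosen with earlier results of these data known. Their counts and medians beside all genes, here and in the drug comparisons below, are therefore not independent of these data. Calls throughout are at a Benjamini-Hochberg adjusted p under 0.05 over all genes tested, by the quasi-likelihood test of edgeR.

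**Figure D1:**
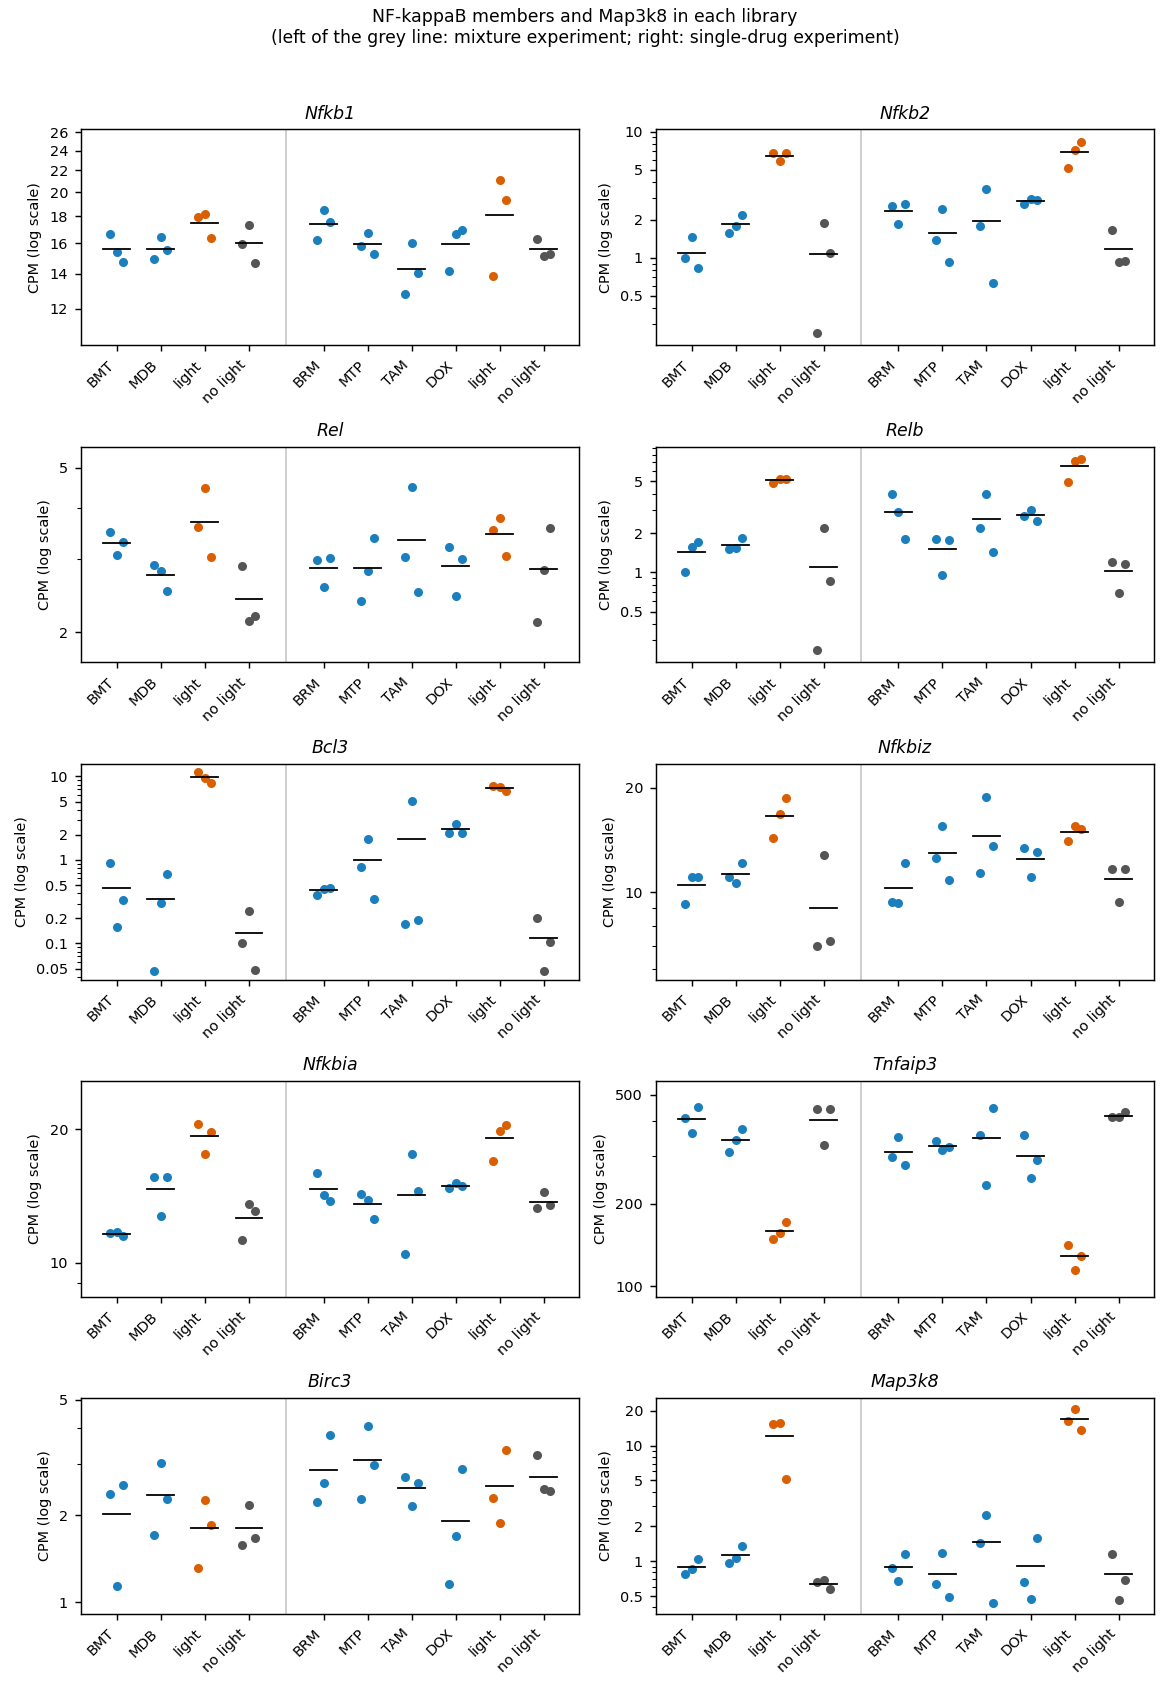
Level of each of the 10 genes in each of the 30 libraries, in CPM on a log scale whose range differs between panels; points are libraries, black lines are group means, orange is light, grey is no light and blue is drug before light. Light stands highest for Bcl3, Map3k8, Nfkb2, Relb and Nfkbia and lowest for Tnfaip3 in both experiments, and TAM replicate 2 is drawn in the middle position of its group.

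Among the DNA-binding subunits, Nfkb2 (ENSMUSG00000025225, chromosome 19, 46304737 to 46312090 of GRCm38.p3), the precursor of p52, was at 6.76, 5.83 and 6.79 CPM with light, against 0.254, 1.88 and 1.09 CPM without light in the mixture experiment. In the single-drug experiment it was at 5.19, 7.21 and 8.33 CPM with light, against 1.66, 0.929 and 0.949 CPM without light. The groups did not overlap in either experiment. Light raised Nfkb2 by 2.58 ± 0.48 (log2 fold change ± SE, adjusted p = 0.00384) and by 2.55 ± 0.47 (adjusted p = 0.0012) in these experiments, or 5.97-fold and 5.84-fold.

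Relb (ENSMUSG00000002983, chromosome 7, 19606217 to 19629438), the partner of p52 in the non-canonical branch, was at 4.87, 5.26 and 5.20 CPM with light, against 0.254, 2.17 and 0.857 CPM without light in the mixture experiment. Its levels in the single-drug experiment were 4.98, 7.16 and 7.42 CPM with light, against 1.21, 0.697 and 1.16 CPM without light. Every light library lay above every no light library in its experiment, and no light replicate 2 was the highest of the mixture experiment's no light libraries for both Relb and Nfkb2. Relb rose by 2.21 ± 0.51 (adjusted p = 0.0136) in the mixture experiment and by 2.67 ± 0.39 (adjusted p = 2.67e-04) in the single-drug experiment. The mixture call was lost when only the groups compared were fitted (adjusted p = 0.0506) and without no light replicate 3 (adjusted p = 0.0646).

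Nfkb1 (ENSMUSG00000028163, chromosome 3, 135584655 to 135691547), the precursor of p50, was at 16.4 to 18.2 CPM with light and at 14.7 to 17.3 CPM without light in the mixture experiment, and at 13.8 to 21.1 CPM with light and 15.1 to 16.3 CPM without light in the single-drug experiment. The groups overlapped in both. Its log2 difference was 0.13 (95% interval −0.07 to 0.34, adjusted p = 0.41) in the mixture experiment and 0.22 (−0.07 to 0.50, adjusted p = 0.268) in the single-drug experiment. Without light replicate 1, its lowest light library, the single-drug difference passed the test (adjusted p = 0.0327).

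Rel (ENSMUSG00000020275, chromosome 11, 23741514 to 23770970), the c-Rel subunit prominent in lymphocytes, was at 3.60, 4.46 and 3.04 CPM with light, against 2.89, 2.13 and 2.19 CPM without light in the mixture experiment. These groups did not overlap, but the difference of 0.62 ± 0.20 missed the threshold (adjusted p = 0.0649), and it passed without light replicate 3 (adjusted p = 0.046). In the single-drug experiment Rel was at 3.07 to 3.77 CPM with light and 2.11 to 3.58 CPM without light, overlapping groups with a difference of 0.28 (95% interval −0.23 to 0.79).

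The nuclear co-regulators of the IkappaB family were Bcl3 and Nfkbiz, whose proteins bind p50 or p52 dimers in the nucleus. Bcl3 (ENSMUSG00000053175, chromosome 7, 19808462 to 19822770) was at 11.4, 9.64 and 8.34 CPM with light, against 0.102, 0.247 and 0.0476 CPM without light in the mixture experiment. Its single-drug levels were 7.75, 7.40 and 6.63 CPM with light, against 0.201, 0.0465 and 0.105 CPM without light. No other member was so near to undetected without light. In the mixture experiment Bcl3 passed the filter on low counts through its light libraries, at 162 to 259 counts, against 1 to 20 counts in the other libraries. Its place among the genes tested there therefore leans towards a rise with light.

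The summed Bcl3 counts were 674 with light and 8 without light in the mixture experiment, a depth-adjusted ratio of 75 (95% counting interval 37.8 to 174). They were 499 with light and 7 without light in the single-drug experiment, a ratio of 62.5 (30.1 to 156). These intervals cover counting error only, and the fitted folds depend on the prior count of the model. In the fit across all genes Bcl3 rose by 6.16 ± 0.77 (adjusted p = 3.05e-04) and by 5.89 ± 1.06 (adjusted p = 0.00108), the largest rise among the 10 members in both experiments.

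Nfkbiz (ENSMUSG00000035356, chromosome 16, 55811375 to 55838899), which encodes IkappaB-zeta, was at 14.4, 16.8 and 18.7 CPM with light, against 7.01, 12.8 and 7.24 CPM without light in the mixture experiment, and rose by 0.88 ± 0.21 (adjusted p = 0.0154). In the single-drug experiment it was at 14.0, 15.5 and 15.2 CPM with light, against 11.7, 9.39 and 11.6 CPM without light, with a difference of 0.45 ± 0.18 (adjusted p = 0.0796). Neither pair of groups overlapped. This gene lay close to the threshold: the mixture call was lost without no light replicate 1 or 3 or light replicate 3 (adjusted p = 0.0532 to 0.0713), in a fit of only the groups compared (adjusted p = 0.0613) and on the deposited TMM-scaled FPKM (adjusted p = 0.314 and 0.608 with a pseudocount of 1 and 0.1). The single-drug difference passed in a fit of only those groups (adjusted p = 0.0437) and on that FPKM (adjusted p = 0.0192 and 0.0213).

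Of the feedback genes, Nfkbia (ENSMUSG00000021025, chromosome 12, 55489411 to 55492647), which encodes IkappaB-alpha, was at 20.5, 17.6 and 19.7 CPM with light, against 11.3, 13.5 and 13.1 CPM without light in the mixture experiment. The single-drug experiment had it at 17.0, 19.8 and 20.4 CPM with light, against 13.3, 14.5 and 13.5 CPM without light. The groups did not overlap in either. It rose by 0.61 ± 0.11 (adjusted p = 0.00331) and by 0.47 ± 0.14 (adjusted p = 0.0217), a rise of 1.53-fold and 1.39-fold, and the single-drug call was lost without light replicate 2 or 3 or no light replicate 1 or 3 (adjusted p = 0.0619 to 0.0843).

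Birc3 (ENSMUSG00000032000, chromosome 9, 7848699 to 7873186), the ubiquitin ligase cIAP2, was at 1.32 to 2.25 CPM with light and 1.57 to 2.17 CPM without light in the mixture experiment, and at 1.89 to 3.36 CPM with light and 2.42 to 3.22 CPM without light in the single-drug experiment. These groups overlapped. Its log2 differences were 0.00 (95% interval −0.75 to 0.76) and −0.10 (−0.80 to 0.59).

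Map3k8 (ENSMUSG00000024235, chromosome 18, 4331327 to 4353015), the kinase TPL2, was at 15.4, 15.6 and 5.15 CPM with light, against 0.660, 0.692 and 0.571 CPM without light in the mixture experiment. Its levels in the single-drug experiment were 16.3, 20.6 and 13.6 CPM with light, against 1.16, 0.465 and 0.685 CPM without light. Light replicate 3 of the mixture experiment was far under its fellow libraries in Map3k8, while its Bcl3, Nfkb2 and Relb lay beside theirs. All light libraries were above all no light libraries, and Map3k8 rose by 4.22 ± 0.41 (18.7-fold, adjusted p = 6.5e-05) and by 4.45 ± 0.56 (21.8-fold, adjusted p = 1.22e-04).

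**Figure D2:**
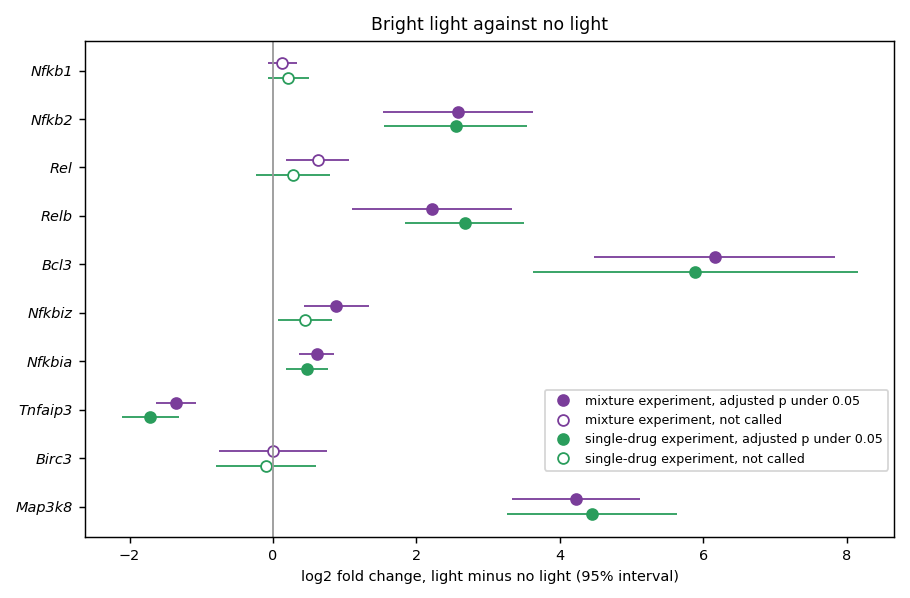
Log2 fold change of each gene, light minus no light, in the mixture and the single-drug experiment with its 95% interval; filled points passed an adjusted p under 0.05. Bcl3 (6.16 and 5.89) and Map3k8 (4.22 and 4.45) lie farthest to the right, and Tnfaip3 (−1.35 and −1.71) is the 1 called gene left of 0.

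Tnfaip3 (ENSMUSG00000019850, chromosome 10, 19000910 to 19015657) encodes A20, an enzyme that edits ubiquitin chains and restrains NF-kappaB signalling, and NF-kappaB induces it in mouse and human immune cells. Here it was at 149, 157 and 172 CPM with light, against 446, 328 and 444 CPM without light in the mixture experiment. In the single-drug experiment it was at 142, 115 and 129 CPM with light, against 415, 415 and 431 CPM without light. The groups lay far apart in both, with light the lower. Tnfaip3 fell by 1.35 ± 0.13 (adjusted p = 6.17e-05) in the mixture experiment and fell by 1.71 ± 0.18 (adjusted p = 7.76e-05) in the single-drug experiment on the log2 scale.

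Per length, Tnfaip3 was also the most abundant member in every group. The deposited FPKM summed per gene averaged 45.7 for Tnfaip3, 14.4 for Nfkbia, 9.76 for Bcl3, 6.15 for Map3k8 and 1.07 for Birc3 with light, against 102, 8.46, 0.124, 0.290 and 0.660 without light in the same order, in the mixture experiment. With light, Bcl3 stood between Nfkbia and Map3k8 in mean FPKM in the mixture experiment, where light replicate 3 was low in Map3k8, and without light it was the lowest. In the single-drug experiment Map3k8 (8.47 FPKM with light) stood above Bcl3. There Tnfaip3 was at 35.9 FPKM with light and 101 FPKM without light, and Bcl3 was at 6.59 FPKM with light and 0.213 FPKM without light.

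The Tnfaip3 signal came from the 2 full-length protein-coding models, which overlap, so that their split by eXpress is uncertain. Transcript Tnfaip3-001 averaged 68.8 CPM with light and 165 CPM without light in the mixture experiment, and Tnfaip3-002 averaged 82.1 CPM with light and 224 CPM without light. For Map3k8 the protein-coding transcript Map3k8-002 held 94.6% of the gene's count with light in the mixture experiment and 94.4% in the single-drug experiment. Bcl3-001 held 74.5% and 83.5% of the Bcl3 count in these groups. Nfkbiz-004 held 76.7% and 85.7% of the Nfkbiz count, and Nfkb2 was split between its protein-coding transcripts Nfkb2-201 and Nfkb2-202.

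Transcripts of rod photoreceptors moved with Tnfaip3. The 7 rod markers (Gnat1, Pde6a, Pde6b, Sag, Nrl, Nr2e3 and Cnga1) summed to 16910 to 20600 CPM with light and to 28960 to 34140 CPM without light in the mixture experiment, and 6 of 7 were called lower. Single-drug libraries summed to 11680 to 15400 CPM with light and 32050 to 36180 CPM without light, and 7 of 7 markers were lower. Tnfaip3 per 1000 CPM of rod markers was 8.69 ± 0.51 with light and 12.5 ± 1.04 without light in the mixture experiment, and 9.17 ± 0.66 with light and 12.3 ± 0.55 without light in the single-drug experiment (SD, n = 3 each). In the mixture experiment the 7 markers ran from −0.35 (Sag) to −1.43 (Nr2e3) on the log2 scale, beside −1.35 for Tnfaip3. The single-drug range was −0.88 (Sag) to −1.82 (Nr2e3), beside −1.71 for Tnfaip3. Nrl had differences of −1.26 and −1.58. Gnat1, at up to 17430 CPM in the mixture experiment, weighs most in the sum, so the ratio depends on the markers chosen. The part of rod transcripts in the fall of Tnfaip3 was not tested.

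**Figure D3:**
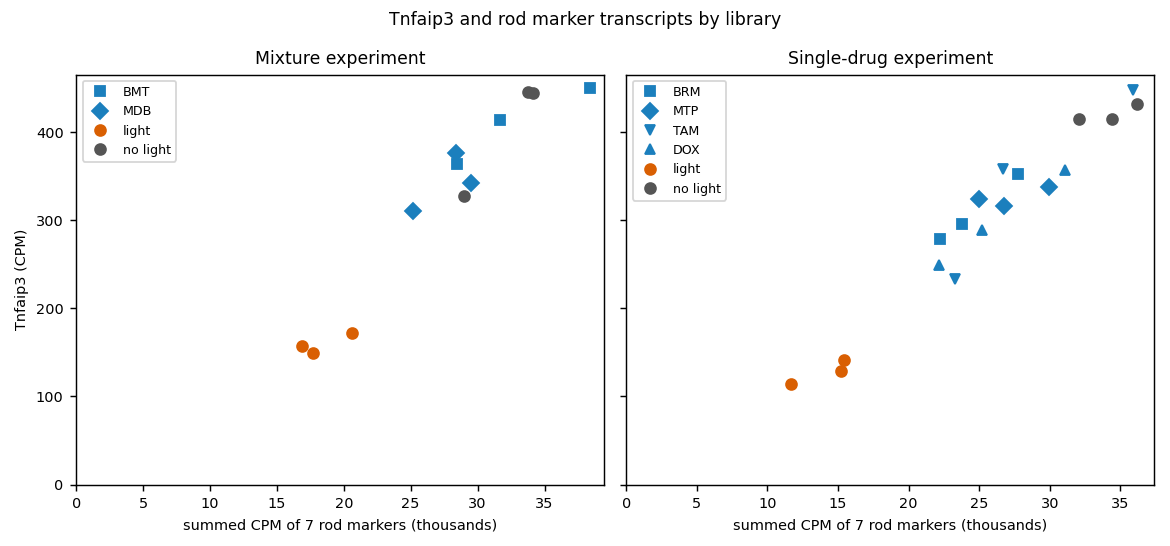
Tnfaip3 in CPM against the summed CPM of the 7 rod markers, 1 point per library, with symbols for the groups of each experiment. The light libraries sit together at the lower left, at 149 to 172 CPM of Tnfaip3 in the mixture experiment and 115 to 142 CPM in the single-drug experiment.

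The gene whose 10 group means were nearest to those of Tnfaip3 was AI847159, at a root mean square log2 difference of 0.03 over 15805 genes. The rod transcription factor gene Nrl was the fourth nearest and the cone transducin gene Gnat2 the fifth, both named after their values were seen. Nearest to Bcl3 were Lad1 (0.33), Fosl1 (0.37), Serpina3n (0.37), Cebpd (0.43) and Lif (0.46). Nearest to Map3k8 were the interferon-induced GTPase genes Irgm1 (0.28), Irgm2 (0.29) and Igtp (0.30), then Gm9429 (0.33) and Usp18 (0.36). The nearest gene was Tagln2 for Nfkb2 (0.14), Baz1a for Relb (0.21), Aldh18a1 for Nfkbia (0.05), Abcc1 for Nfkbiz (0.08), Cyth3 for Nfkb1 (0.03), Fam78b for Rel (0.06) and Noxred1 for Birc3 (0.10). This distance is not scaled to a member's own range, which was narrow for Nfkb1, and the 10 means of all genes come from the same libraries.

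Markers of immune cells, in which these genes are best known, were measured beside them. The 11 microglia markers summed to 43.9 to 52.2 CPM with light and 53.8 to 56.7 CPM without light in the mixture experiment, and to 56.6 to 64.0 CPM with light and 51.1 to 58.7 CPM without light in the single-drug experiment. None of the 11 was called higher in either by edgeR, and P2ry12 was lower in both, with Siglech lower in the mixture experiment. The 9 leukocyte markers summed to 4.94 to 6.44 CPM with light and 3.14 to 5.54 CPM without light, and to 7.49 to 8.77 CPM with light and 2.88 to 5.79 CPM without light in the single-drug experiment, with Cd3e and Ccr2 at no more than 4 counts in any library and none of the 3 that passed the filter called. Of 7 endothelial markers only Kdr was called (higher, by 1.24 ± 0.14 in the mixture experiment and 1.21 ± 0.22 in the single-drug experiment), and the part of any of these cells in the members' changes was not tested.

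Markers of Müller glia, the radial glia that span the retina, moved in both directions with light. The 8 markers summed to 1362 to 1433 CPM with light and 2177 to 3009 CPM without light in the mixture experiment, and to 1735 to 1819 CPM with light and 2546 to 2722 CPM without light in the single-drug experiment. The glutamine synthetase gene Glul fell by 1.87 ± 0.13 and by 1.73 ± 0.27 on the log2 scale, while the glutamate transporter gene Slc1a3 (0.75 ± 0.13 and 0.89 ± 0.17) and the transcription factor gene Sox9 (0.92 ± 0.17 and 0.95 ± 0.17) rose. Rlbp1 was called lower in the mixture experiment, and the other 4 were called in neither. The part of Müller glia in the members' changes was not tested.

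Other genes of the pathway were counted in lists, and the counts of each list below are to be read beside the shares of all genes called. With light these shares were 7.77% higher and 5.48% lower in the mixture experiment. In the single-drug experiment they were 11.3% higher and 12.6% lower. Of the 7 other subunits and inhibitors, 2 were higher and 1 lower with light in each experiment. Rela, the main transactivating subunit, rose by 0.91 ± 0.13 (adjusted p = 8.53e-04) in the mixture experiment and by 0.48 ± 0.14 (adjusted p = 0.0181) in the single-drug experiment. Nfkbie, the inhibitor IkappaB-epsilon, rose by 0.92 ± 0.22 and 0.68 ± 0.20, and Commd1, which promotes turnover of RelA, had differences of −0.57 ± 0.12 and −0.57 ± 0.13, both called. Nfkbib had differences of 0.28 and −0.08 and was not called.

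In the non-canonical branch 3 of 7 tested genes were higher and 0 lower with light in the mixture experiment, and 2 were higher and 1 (Traf3, named after its value was seen) lower in the single-drug experiment. Tnfrsf12a, the TWEAK receptor, was at 24.7, 22.3 and 18.6 CPM with light, against 2.64, 4.10 and 3.52 CPM without light in the mixture experiment, and it rose by 2.67 ± 0.25 there and by 2.81 ± 0.49 in the single-drug experiment. Ltbr, the lymphotoxin-beta receptor, rose by 1.94 ± 0.31 and 1.84 ± 0.42. Map3k14, the kinase NIK that acts on p100, rose by 0.70 ± 0.13 (adjusted p = 0.00358) in the mixture experiment and was not called in the single-drug experiment (−0.19 ± 0.22).

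Of the 24 genes of receptors, adaptors and kinases upstream, 9 were higher and 1 lower with light in the mixture experiment, and 10 higher and 3 lower in the single-drug experiment. Ripk1, an adaptor kinase of the TNF receptor, rose by 1.87 ± 0.14 and 2.10 ± 0.34, Myd88, the adaptor of Toll-like and interleukin-1 receptors, by 1.87 ± 0.20 and 1.88 ± 0.32, and the interleukin-1 receptor gene Il1r1 by 1.73 ± 0.21 and 1.62 ± 0.29. None of the IkappaB kinase genes was called higher. Chuk had differences of 0.13 and 0.16 and Ikbkb of 0.04 and −0.11, none called, and Ikbkg had a difference of −0.23 in the mixture experiment and fell by 0.28 ± 0.08 in the single-drug experiment (adjusted p = 0.0187).

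Other feedback genes split: 3 of 9 tested were higher and 1 lower in each experiment. Tnip2, a partner of A20 and of TPL2 with p105, was at 47.9, 43.7 and 53.9 CPM with light, against 19.1, 16.9 and 19.2 CPM without light in the mixture experiment, and rose by 1.40 ± 0.14 and 1.00 ± 0.23. Tax1bp1, an A20 adaptor, rose by 0.31 ± 0.08 and 0.28 ± 0.08, and the deubiquitinase gene Otud7b fell, with differences of −0.35 ± 0.09 and −0.58 ± 0.10. The third riser was Zc3h12a in the mixture experiment (1.79 ± 0.49) and N4bp1 in the single-drug experiment (0.21 ± 0.07), both named after their values were seen. Tnip1 and Cyld were not called.

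The list with the highest median was that of genes known as NF-kappaB targets, of which 12 of 18 tested were higher and 0 lower with light in each experiment, with medians of 2.29 and 2.52 on the log2 scale. Irf1, a transcription factor gene, rose by 3.22 ± 0.23 and 3.08 ± 0.36, Lcn2, a secreted iron-siderophore binder, by 3.52 ± 0.34 and 3.81 ± 0.57, and the stress gene Gadd45b by 3.55 ± 0.37 and 3.82 ± 0.73. The other 10 of the 28 listed genes did not pass the filter on low counts. A gene low without light can pass that filter through its light libraries alone, while genes low in every group drop out. The count of higher targets and their medians therefore lean upward. Of 19 tested genes downstream of TPL2 and ERK, 7 were higher and 0 lower in the mixture experiment and 12 higher and 0 lower in the single-drug experiment, with medians of 0.25 and 0.28. Fos rose by 1.65 ± 0.27 and 2.11 ± 0.42 and Dusp5, an ERK phosphatase gene, by 0.62 ± 0.12 and 0.52 ± 0.13. Fosl1 was at 4.92, 3.43 and 4.48 CPM with light, against 0 counts in every no light library of the mixture experiment, at least 85.8-fold higher when 3 counts are allowed over that group. Fosl1 passed the filter in the mixture experiment through its light libraries alone, so the count of higher genes in this list also leans upward there.

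**Figure D4:**
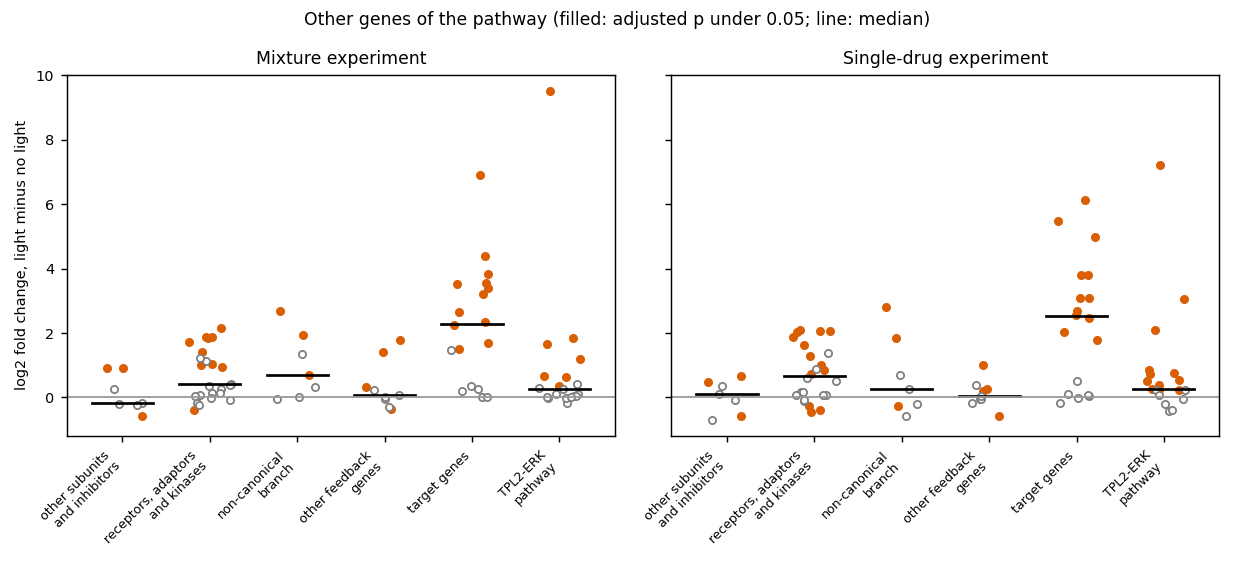
Log2 fold change, light minus no light, of the tested genes of 6 other pathway lists in each experiment; filled points passed an adjusted p under 0.05 and lines are medians. Target genes have medians of 2.29 and 2.52, and the highest point of the TPL2-ERK list is Fosl1, whose fitted value depends on the prior count because it had no counts without light in the mixture experiment.

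Drug before light was set against light alone, to ask how far the drugs changed the members' levels after exposure. Set against light alone, 1 member was higher and 6 lower with BMT, where 17.8% of all genes were called (7.97% higher and 9.79% lower). With MDB 1 was higher and 4 lower (9.64% of all genes called, 3.7% higher and 5.93% lower). Among single drugs, BRM had 1 higher and 4 lower (14.4%, 7.06% higher and 7.33% lower) and MTP had 1 higher and 5 lower (10.3%, 5.37% higher and 4.94% lower). TAM had 1 higher and 3 lower (10.6%, 6.57% higher and 4.01% lower), and DOX had 1 higher and 2 lower (11.8%, 6.77% higher and 5.06% lower). The 1 higher gene was Tnfaip3 in all 6 comparisons, and Map3k8 was lower in all 6. The members' median log2 fold change was −0.70 with BMT, −0.49 with MDB, −0.46 with BRM, −0.38 with MTP, −0.38 with TAM and −0.37 with DOX, beside medians between −0.03 and 0.00 over all genes. Comparisons within an experiment share their light libraries, so that their likeness is not independent.

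Map3k8 was at 0.772, 0.866 and 1.05 CPM with BMT and at 0.969, 1.08 and 1.36 CPM with MDB, against 15.4, 15.6 and 5.15 CPM with light. Against light it fell by 3.75 ± 0.39 with BMT (adjusted p = 1.45e-04) and fell by 3.41 ± 0.38 with MDB (adjusted p = 2.23e-04). Among single drugs it was at 0.867, 0.671 and 1.17 CPM with BRM, 0.640, 1.18 and 0.490 CPM with MTP, 1.44, 2.51 and 0.439 CPM with TAM, and 0.664, 0.470 and 1.60 CPM with DOX, against 16.3, 20.6 and 13.6 CPM with light. No drug library reached any light library of its experiment. Single-drug differences were −4.21 ± 0.55 with BRM, −4.45 ± 0.56 with MTP, −3.50 ± 0.53 with TAM and −4.19 ± 0.55 with DOX, with adjusted p between 6.28e-04 and 0.00137.

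Tnfaip3 was at 414, 364 and 450 CPM with BMT and 311, 342 and 376 CPM with MDB, against 149, 157 and 172 CPM with light. Its levels were 296, 352 and 278 CPM with BRM, 338, 316 and 324 CPM with MTP, 358, 234 and 448 CPM with TAM and 357, 249 and 289 CPM with DOX, against 142, 115 and 129 CPM with light. All drug libraries lay above all light libraries of their experiment. It was higher by 1.36 ± 0.13 with BMT, 1.11 ± 0.13 with MDB, 1.26 ± 0.18 with BRM, 1.34 ± 0.18 with MTP, 1.43 ± 0.18 with TAM and 1.22 ± 0.18 with DOX (adjusted p of 9.72e-05 to 0.0023). Tnfaip3 per 1000 CPM of rod markers averaged 12.5 with BMT, 12.4 with MDB, 12.6 with BRM, 12.0 with MTP, 12.0 with TAM and 11.4 with DOX, against 8.69 with light in the mixture experiment and 9.17 with light in the single-drug experiment. The TAM libraries were at 13.4, 10.0 and 12.5 in this ratio, with replicate 2 the lowest.

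Bcl3 had differences from light that ranged more widely over the drugs than those of Map3k8 and Tnfaip3, with larger SE. It was at 0.908, 0.157 and 0.331 CPM with BMT and 0.0461, 0.307 and 0.679 CPM with MDB, against 11.4, 9.64 and 8.34 CPM with light, with log2 differences of −4.38 ± 0.65 (adjusted p = 0.00107) and −4.82 ± 0.68 (adjusted p = 9.79e-04). With BRM it was at 0.385, 0.447 and 0.466 CPM and with MTP at 0.815, 1.80 and 0.343 CPM, against 7.75, 7.40 and 6.63 CPM with light, with differences of −4.05 ± 0.91 (adjusted p = 0.00927) and −2.88 ± 0.84 (adjusted p = 0.0394). The MTP call was lost in 5 of the 6 fits without 1 of its own or the light libraries (adjusted p = 0.0673 to 0.135).

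With TAM, Bcl3 was at 0.169, 5.03 and 0.188 CPM, against 7.75, 7.40 and 6.63 CPM with light, so that replicate 2 lay near the light libraries and the other two near those without light. The difference of −1.95 ± 0.80 was not called (adjusted p = 0.137), and without TAM replicate 2 it was −5.28 (adjusted p = 7.14e-05). With DOX, Bcl3 was at 2.10, 2.72 and 2.12 CPM, against 7.75, 7.40 and 6.63 CPM with light. All DOX libraries lay under all light libraries, with a difference of −1.64 ± 0.78 that was not called (adjusted p = 0.178). That value passed when only DOX and light were compared (adjusted p = 0.00776), by limma voom (adjusted p = 0.0158) and without TAM replicate 2 in the shared fit (adjusted p = 0.0144). The shared fit uses 1 estimate of spread per gene over all groups of an experiment.

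TAM replicate 2 had the highest Nfkb2 (3.51 CPM), Relb (4.03 CPM), Rel (4.50 CPM), Nfkbia (17.6 CPM), Nfkbiz (18.8 CPM) and Map3k8 (2.51 CPM) and the lowest Tnfaip3 (234 CPM) of the TAM libraries. Its markers of Müller glia summed to 1425 CPM, under those of all other drug libraries of the experiment. Without it 6 members were called between TAM and light, against 4 with it, and those added were Bcl3 and Nfkbia (−0.60, adjusted p = 0.00689). Calls in the TAM comparison fell to 2 without TAM replicate 1 or 3 or light replicate 2 or 3, as Nfkb2 (adjusted p = 0.0622 to 0.0735) and Relb (0.0905 to 0.154) lost theirs.

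Nfkb2 was lower than with light alone in 5 drug groups, at −2.54 ± 0.47 with BMT (adjusted p = 0.00389), −1.80 ± 0.45 with MDB (adjusted p = 0.0278), −1.55 ± 0.44 with BRM (adjusted p = 0.0299), −2.13 ± 0.46 with MTP (adjusted p = 0.0085) and −1.79 ± 0.45 with TAM (adjusted p = 0.0193). With DOX it was at 2.66, 2.91 and 2.87 CPM, against 5.19, 7.21 and 8.33 CPM with light, groups that did not overlap, with a difference of −1.29 ± 0.44 that missed the threshold (adjusted p = 0.0663). The MDB call was lost without any 1 of its own or the light libraries (adjusted p = 0.0632 to 0.104), and the BRM call was lost without any BRM library or light replicate 2 or 3 (adjusted p = 0.0714 to 0.119).

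Relb was also lower in 5 drug groups, at −1.84 ± 0.50 with BMT (adjusted p = 0.0261), −1.16 ± 0.36 with BRM (adjusted p = 0.0427), −2.11 ± 0.38 with MTP (adjusted p = 0.00332), −1.34 ± 0.37 with TAM (adjusted p = 0.0295) and −1.25 ± 0.36 with DOX (adjusted p = 0.0373). With MDB it was at 1.52, 1.54 and 1.84 CPM, against 4.87, 5.26 and 5.20 CPM with light, a difference of −1.64 ± 0.49 that missed the threshold (adjusted p = 0.0599) and passed by limma voom (adjusted p = 0.0135) and DESeq2 (adjusted p = 0.01). Libraries of drug and light did not overlap for Relb in any of the 6 comparisons. The BMT and DOX calls were each lost without any 1 of the 6 libraries they compare (adjusted p = 0.0508 to 0.0855 for BMT and 0.0569 to 0.137 for DOX), and that of BRM without any of 5 (0.0593 to 0.17). With protein-coding transcripts only, Relb was not called with BRM, TAM or DOX (adjusted p = 0.137, 0.116 and 0.11).

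Nfkbia was at 11.7, 11.7 and 11.5 CPM with BMT and 15.6, 12.8 and 15.6 CPM with MDB, against 20.5, 17.6 and 19.7 CPM with light, with differences of −0.73 ± 0.11 (adjusted p = 0.00114) and −0.40 ± 0.11 (adjusted p = 0.0423). It was also lower with MTP, at −0.49 ± 0.14 (adjusted p = 0.0349). The MDB call was lost without light replicate 1 or 3 or any MDB library (adjusted p = 0.0691 to 0.16), and the MTP call without light replicate 2 or 3 or any MTP library (0.0724 to 0.137). With BRM, TAM and DOX the differences were −0.38 ± 0.14, −0.42 ± 0.14 and −0.36 ± 0.14 and were not called (adjusted p = 0.0781, 0.0687 and 0.104).

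Nfkbiz was called in 1 of the 6 comparisons, with BMT, where it fell by 0.67 ± 0.21 (adjusted p = 0.0448), a call lost without any 1 of the 6 libraries compared (0.0641 to 0.127). Its difference was −0.54 ± 0.18 with BRM (adjusted p = 0.0561) and −0.56 ± 0.21 with MDB (adjusted p = 0.121). Nfkb1, Rel and Birc3 were called in none of the 6 by edgeR, with log2 differences of −0.34 to −0.05 for Nfkb1, −0.43 to −0.04 for Rel and −0.39 to 0.37 for Birc3. Counting libraries that did not overlap gave 7 members with BMT (39.1% of all genes), 8 with MDB (33.2%), 8 with BRM (39.4%), 6 with MTP (29.8%), 5 with TAM (27.7%) and 7 with DOX (31.4%).

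**Figure D5:**
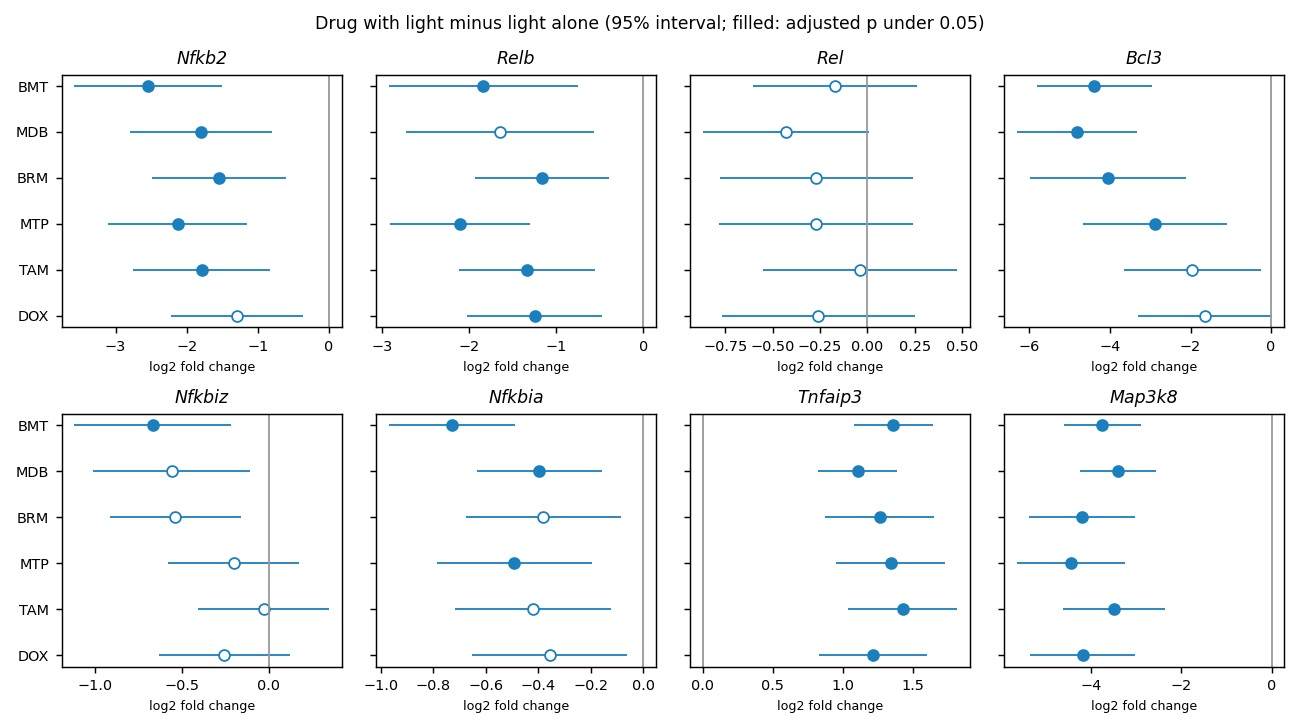
Log2 fold change, drug before light minus light alone, of 8 of the genes with its 95% interval in the 6 drug comparisons; filled points passed an adjusted p under 0.05 and the scale differs between panels. Map3k8 lies between −4.45 and −3.41 and Tnfaip3 between 1.11 and 1.43 in all 6, whereas Bcl3 runs from −4.82 with MDB to −1.64 with DOX.

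Of the 18 tested NF-kappaB target genes, 12 were lower than with light alone with BMT, 8 with MDB, 10 with BRM, 10 with MTP, 6 with TAM and 6 with DOX, and 0 were higher in any of the 6 by edgeR. Among all genes 9.79% were lower with BMT, 5.93% with MDB, 7.33% with BRM, 4.94% with MTP, 4.01% with TAM and 5.06% with DOX. The median log2 fold changes of these target genes were −1.95 with BMT, −1.56 with MDB, −1.77 with BRM, −1.75 with MTP, −1.70 with TAM and −1.44 with DOX. Targets that passed the filter through their light libraries alone tilt these counts and medians towards lower levels with drug. In TAM replicate 2 the targets Gadd45b (21.5 CPM) and Lcn2 (10.4 CPM) were also far above the other TAM libraries (2.03 and 1.95 CPM for Gadd45b, 2.71 and 2.57 CPM for Lcn2). The TAM count and median of the targets are given only with this library, as is the TAM count of genes downstream of TPL2 and ERK. Of the 19 tested genes downstream of TPL2 and ERK, 6 were lower with BMT, 5 with MDB, 8 with BRM, 4 with MTP, 6 with TAM and 3 with DOX, and 0 were higher. In the mixture experiment Fosl1, which passed the filter through its light libraries alone, tilts these counts towards lower levels with drug.

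Set against no light, no member was called in any drug group by edgeR in the fit of all groups or by limma voom, nor by DESeq2 where it gave an adjusted p. By edgeR 0.00618% of all genes were called with BRM and 0% in each other comparison with no light. DESeq2 gave no adjusted p for part of the members' results. At an unadjusted p under 0.05 the members numbered 1 with BMT (6.32% of all genes tested at that threshold), 0 with MDB (10.3%), 3 with BRM (15.6%), 1 with MTP (8.59%), 3 with TAM (8.19%) and 4 with DOX (13%). The DOX libraries lay above the no light libraries in Bcl3 (2.10, 2.72 and 2.12 CPM with DOX, against 0.201, 0.0465 and 0.105 CPM without light), a difference of 4.24 ± 1.07 (95% interval 1.97 to 6.51, adjusted p = 0.282). In an edgeR fit of only DOX and no light this difference was 4.26 with an adjusted p of 0.0267. Without TAM replicate 2 in the shared fit it was 4.25 with an adjusted p of 0.00195. Bcl3 was the 1 member called in each of these fits.

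Relb showed differences from no light of 1.42 ± 0.39 with DOX, 1.51 ± 0.39 with BRM and 1.34 ± 0.39 with TAM, with adjusted p of 0.282, 0.124 and 0.588, and all libraries of each of these drugs lay above all no light libraries. Tnfaip3 libraries with DOX, BRM and MTP lay under all no light libraries, with differences of −0.49 ± 0.18, −0.44 ± 0.18 and −0.37 ± 0.18. Members with libraries that did not overlap those without light numbered 5 with DOX, where 17.7% of all genes had this pattern, 4 with BRM (25.3%), 2 with MTP (16%), 1 with TAM (11.2%), 2 with BMT (9.15%) and 1 with MDB (14.7%). For Map3k8 the intervals of the difference from no light were −0.45 to 1.40 with BMT and −0.09 to 1.73 with MDB.

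The mixtures, which differ in holding doxazosin (MDB) or tamsulosin (BMT), were compared directly. No member was called by edgeR or limma voom, nor by DESeq2 where it gave an adjusted p, with 0% of all genes called by edgeR. At an unadjusted p under 0.05 there was 1 member, beside 18.8% of all genes. Libraries did not overlap for 3 members (Nfkb2, Rel and Nfkbia), where 27% of all genes had this pattern. The member with an unadjusted p under 0.05 was Nfkbia, at 15.6, 12.8 and 15.6 CPM with MDB and 11.7, 11.7 and 11.5 CPM with BMT, a difference of 0.33 ± 0.11 (95% interval 0.09 to 0.58, adjusted p = 0.189). The interval for Bcl3 was −2.06 to 1.20, for Map3k8 −0.53 to 1.22, and for Tnfaip3 −0.53 to 0.02. DOX and TAM alone did not differ in a called member either, with 0 members at an unadjusted p under 0.05, beside 15.5% of all genes. Bcl3 there had a difference of 0.31 (95% interval −1.39 to 2.00) with TAM replicate 2, and of 3.65 without it (adjusted p = 0.0328).

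The order of Bcl3 levels in the single-drug experiment was light (7.26 CPM on average), DOX (2.32), TAM (1.79), MTP (0.986), BRM (0.433) and no light (0.118). Light did not overlap DOX, and BRM did not overlap no light, whereas the neighbours between them overlapped. Without TAM replicate 2 the TAM mean was 0.179 CPM, which placed TAM between BRM and no light. For Nfkb2 the order was light (6.91 CPM), DOX (2.81), BRM (2.35), TAM (1.97), MTP (1.58) and no light (1.18), and only light stood clear of its neighbour. Without TAM replicate 2 the TAM mean of Nfkb2 was 1.20 CPM, under that of MTP. In the mixture experiment Bcl3 averaged 9.78 CPM with light, 0.466 with BMT, 0.344 with MDB and 0.132 without light, and again only light stood clear.

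The light effect itself was compared between the experiments. No member differed by edgeR or limma voom, nor by DESeq2 where it gave an adjusted p. By edgeR 0 members were at an unadjusted p under 0.05 (15.1% of all genes) and 0% of all genes were called. The smallest adjusted p of a member was 0.479, for Nfkbiz (0.43, 95% interval −0.14 to 1.01). The difference was 0.27 for Bcl3 (−3.14 to 3.67), −0.22 for Map3k8 (−1.68 to 1.23) and 0.36 for Tnfaip3 (−0.12 to 0.85), mixture minus single-drug experiment.

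The authors' deposited tables of changed transcripts, with 521 transcripts for the mixture and 622 for the single-drug experiment, hold 3 members each. In the mixture experiment, the authors' deposited table gives a log2 fold change of −4.27 for BMT and −5.13 for MDB against light for Bcl3-001, and of −3.14 and −1.88 for Nfkb2-202. For Tnfaip3-002 the authors' deposited table gives 1.07 for BMT and 1.15 for MDB. In the single-drug experiment, the authors' deposited table gives −3.73 with BRM, −4.14 with MTP, −3.54 with TAM and −1.77 with DOX against light for Bcl3-001, and values between −4.58 and −4.36 for Map3k8-002. Of the called members, Relb, Nfkbia and Nfkbiz have no transcript in the authors' deposited tables of changed transcripts. Relb was also absent from the authors' filtered FPKM in both experiments, and Nfkb2 in the single-drug experiment. Their absence from the changed transcripts there is therefore not a finding of no change. Map3k8 was in the authors' filtered FPKM of both experiments, but among their changed transcripts only in the single-drug experiment. The edgeR fit per gene called Map3k8 higher with light in both.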

How the data were processed

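Stranded poly(A) libraries of neural retina were sequenced, 3 per group in 10 groups. The submitters' processing notes name Trimmomatic, Bowtie2, TopHat2, eXpress, edgeR and limma and the build GRCm38.p3, without versions. Per transcript (102906 of them), the authors deposited expected counts from eXpress, which are not normalized. The deposited FPKM tables come from eXpress, and a second set was scaled by TMM and filtered by the authors. In further deposited tables the authors give the log2 fold change of each group against light and 1 adjusted p-value per transcript.

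Expected counts were summed per gene name and rounded. Genes passing filterByExpr (15941 and 16184) were scaled by TMM and fitted within each experiment, which the labels say were performed and analysed separately, with edgeR 4.0.16 (R 4.3.3) and its quasi-likelihood test. Tests were two-sided, and p-values were adjusted by Benjamini-Hochberg over all genes tested in each of 17 comparisons. Light effects were compared in 1 fit of all 30 libraries. SE is the absolute log2 fold change over the square root of F, and intervals are at 95%. Depth limits the low members most. No columns of sample values were left unmapped.

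The members, the lists and the rule for named genes were chosen with earlier results of these data known. The rule names the members, the 3 genes of each other list that had the lowest adjusted p for the light effect of the mixture experiment, direct partners of the members, and the genes nearest in pattern. Nearness is the root mean square difference of 10 group means of log2 CPM (prior count 1), centred within an experiment, the 5 nearest for Bcl3 and Map3k8 and 1 for each other member. The tests were checked on simulated data. One gene of the rod marker list is not reported here and was left out of its sums.

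Alternatives were RLE size factors, no filter, DESeq2 1.42.0, limma voom 3.58.1, a replicate block, only the groups compared, limma on the log2 of deposited TMM-scaled FPKM plus 1 or 0.1, and each library left out. Added after seeing the data were a lens-fibre covariate, protein-coding transcripts only, and all single-drug comparisons without TAM replicate 2.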

Additional observations from a re-analysis of the deposited data

How the results depend on the processing

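No call of a member was reversed in direction under any alternative, but small differences that were not called could change sign. For Rel the TAM mean was 3.35 CPM with TAM replicate 2 and 2.78 CPM without it, beside 2.89 CPM with DOX. Counts of members called moved by more than 1.5 times in these cases. With only the groups compared, TAM against light had 2 called, DOX against light 5 and DOX against no light 1. DOX against light had 5 called by limma voom. Without TAM replicate 2, DOX against light had 5, DOX against no light 1 and DOX against TAM 1. With each library left out in turn, the count ran from 5 to 7 for light in both experiments, was 5 throughout for BMT, and ran from 3 to 4 for MDB, 3 to 7 for BRM, 4 to 6 for MTP, 2 to 6 for TAM and 2 to 5 for DOX, each against light, and from 0 to 1 for DOX against no light and DOX against TAM. MDB fell to 3 without light replicate 1 or 3 or any MDB library, and BRM to 3 without light replicate 2 or 3 or BRM replicate 2 or 3. Map3k8 and Tnfaip3 kept their calls in all 8 comparisons that involve light alone under these settings where they were fitted. Replicate numbers did not pair the libraries: correlations of same-numbered deviations ran from −0.216 to 0.561 (median −0.014) in the mixture and from −0.265 to 0.435 (median −0.01) in the single-drug experiment, beside medians of 0.016 and 0.014 for different numbers in the same order, and the replicate block gave 7 and 6 calls for light, 7 for BMT, 4 for MDB, 4 for BRM, 6 for MTP, 4 for TAM and 2 for DOX. Over the settings that leave out no library, calls of single members were lost in 23 cases and gained in 30. Losses with only the groups compared were Relb and Nfkbiz for light in the mixture experiment (adjusted p = 0.0506 and 0.0613), Nfkbia with MDB (0.0529), and Nfkb2 and Relb with TAM (0.118 and 0.111). Without the filter they were Nfkbiz with BMT (0.0513), Nfkbia with MDB and MTP (0.0664 and 0.061) and Relb with BRM (0.0576), and with the block Nfkbia with MDB (0.0611) and Relb with BRM and DOX (0.0554 and 0.0525). On FPKM, Nfkbiz was lost for light in the mixture experiment and with BMT (adjusted p from 0.121 to 0.608). Relb and Birc3 in both experiments, and Nfkb2 in the single-drug experiment, were absent from that FPKM and not tested on it. The lens-fibre covariate lost Bcl3 with MTP (0.0658) and Relb with BRM (0.0552), and it gained Relb and Nfkbiz with MDB (0.0242 and 0.0183). Protein-coding transcripts only lost Bcl3 with MTP (0.0763), Relb with BRM, TAM and DOX (0.137, 0.116 and 0.11) and Nfkbia with MDB (0.0517). The cause of these moves was not tested. Members under about 2 CPM without light, such as Bcl3, Map3k8, Nfkb2 and Relb, rest on few counts there, which limits the precision of their folds.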
